A study of Mus musculus with 333 samples.

Results

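Immature neurons of the mouse visual cortex at embryonic day 18.5 (E18.5) are described here gene by gene, with glia, vessel cells and a few neurons of another dissection as reference. The 65 neurons are all cells whose title places them in the E18.5 visual cortex and whose cell type label reads Neurons, out of 333 cells in all. The visual cortex set at E18.5 held 71 cells, and its other members were 2 cells labelled Astrocyte and 4 unannotated cells. Cells came from wild-type mice at E18.5, at postnatal day 12 and in adulthood. They were enriched by fluorescence-activated sorting, with a gate not given in the sources used here, and captured on a Fluidigm C1 microfluidic device that makes a separate full-length cDNA library of the polyadenylated RNA of each cell. The design text gives 5 mice per stage, but no label ties a cell to a mouse. The neurons therefore count as 1 sample, no comparison below has replicates, and none has a test. Differences are given with the range found when each neuron is left out in turn where that range matters.

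Excitatory neurons of the cerebral cortex are born from radial glia and intermediate progenitors next to the ventricle, migrate outward along radial glial fibres, and settle in layers with the deep layers filled first and the upper layers later. Around birth, late-born neurons are still arriving, axons and dendrites are growing and few synapses have formed. A relay of transcription factors, with Neurog2 in progenitors, Eomes in intermediate progenitors and NeuroD factors and Tbr1 in the young neurons, accompanies the passage. Layer fate involves factors such as Bcl11b and Tbr1. Inhibitory interneurons are born elsewhere, in the ganglionic eminences, and enter the cortex by tangential migration under the control of Dlx and Lhx6 factors.

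The main reference was 202 glia and vessel cells of all ages and regions, after 2 near-identical microglia libraries were averaged as 1 cell. These were 85 astrocytes, 41 microglia, 34 endothelial cells, 16 oligodendrocyte precursor cells, 5 newly formed oligodendrocytes and 21 myelinating oligodendrocytes. Only 19 astrocytes, 2 microglia and 2 precursor cells among them were from E18.5, so in this comparison cell type cannot be told apart from age or region. A second reference was the 19 E18.5 astrocytes alone, 2 from visual cortex and 17 from cells titled mThal. The last was the 5 E18.5 neurons titled mThal, whose source field names the visual cortex.

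Neuron libraries held 484310 to 2353760 reads (median 1432276), and 1750 to 6649 detected genes, with a median of 3406. Reference libraries held 374574 to 4849603 reads with a median of 1275318 and a median of 2576 genes. A pair of neurons stood apart from the rest, neuron 55 by its cell cycle genes and neuron 70 by its astrocyte genes, and both were kept. Levels are pooled reads of all cells in an arm, scaled to the depth of that arm (CPM). A difference is the log2 ratio with 1 CPM added to each arm, which understates the difference of low genes, and a gene was measured when either arm reached 10 CPM. A gene is called higher or lower here when it differed by 4-fold or more, which is a rule of size. Against glia and vessel cells, 10561 genes were measured, of which 1222 (11.6%) were higher in neurons and 2378 (22.5%) lower, with a median log2 ratio of -0.02 over all of them. Only 372 genes (3.52%) were at least 4-fold higher in neurons than in each of the 6 reference types on its own. To compare how many cells carried a gene, every cell was first thinned to 700000 reads, a depth that 52 of the 65 neurons, 41 of 41 microglia and 186 of the 202 reference cells reached. Microglia, which should lack neuronal transcripts, serve as background for these shares and had a median depth of 1398480 reads.

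The 5 neuronal markers supplied with the cell type were all higher in the cells labelled Neurons. The basis of the label is not given and it may have been set from these counts, so the marker levels are a description only. Stmn2 (stathmin 2, a microtubule regulator of growth cones, chr3:8509360-8561606, plus strand, GRCm38) ran from 0 through a median of 1094 to 5401 CPM over the 65 neurons and had a read in 51 of 52 thinned neurons and 3 of 41 microglia. Its summed level was 1236 CPM against 6.60 CPM in glia and vessel cells, a log2 ratio of 7.35. Nearly every neuron carried Stmn2, but 5 neurons had under 10 CPM, and 5 astrocytes and 3 endothelial cells reached 10 CPM, so the groups overlapped at the edges. Dcx (doublecortin, a microtubule-binding protein of migrating neurons, chrX:143855842-143933311, minus strand) ran from 32.4 through 2463 to 6978 CPM and was the 1 marker above 10 CPM in all 65 neurons. Its summed level was 2613 against 59.9 CPM (log2 ratio 5.42), with a read in 8 of 41 microglia. Some cells with glial labels also carried Dcx, since 8 astrocytes, 3 microglia and 8 oligodendrocyte precursor cells reached 10 CPM, with the highest astrocyte at 2722 CPM. Of the glia and vessel cells 13 carried another class's markers at 25% or more, and their part in these reads was not tested. The transcription factor genes were narrower. Neurod6 (a NeuroD factor of postmitotic cortical neurons, chr6:55677822-55681263, minus strand) ran from 0 through 419.6 to 4490.2 CPM and had a read in 48 of 52 neurons and 1 of 41 microglia, at 922 against 7.02 CPM (log2 ratio 6.85). Neurod2 (a related factor, chr11:98325415-98329648, minus strand) ran from 0 through 21.2 to 339 CPM, with a read in 40 of 52 neurons and 0 of 41 microglia and a log2 ratio of 5.84. Tbr1 (a T-box factor of early-born and deep layer neurons, chr2:61802930-61814114, plus strand) had a median of 0 and a highest value of 1482 CPM, and was read in 23 of 52 neurons and in none of 41 microglia. No reference cell reached 10 CPM of Tbr1, so its groups differed by the presence of a high subset of 22 neurons rather than by a level shared by all neurons.

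**Figure D1:**
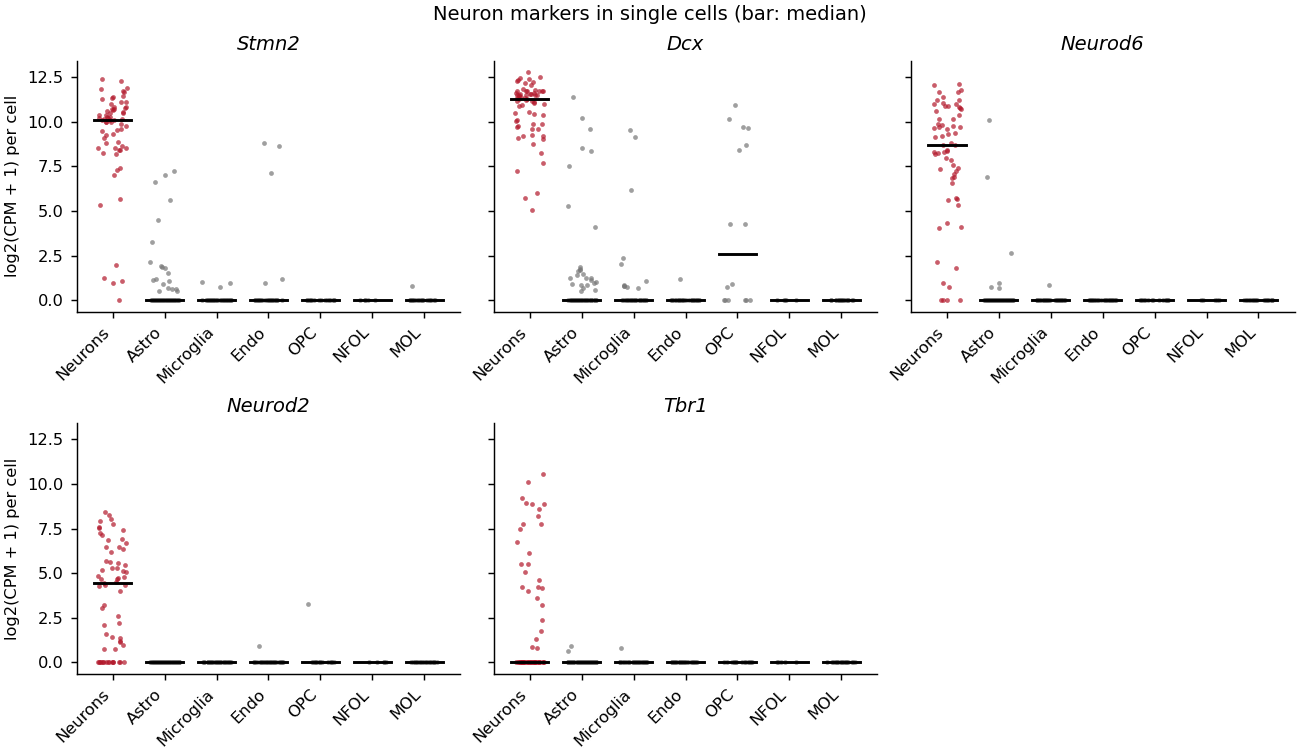
Level of 5 neuron markers in each cell, as log2(CPM + 1) on the vertical axis, by cell type on the horizontal axis, with 1 point per cell and a bar at the median. Dcx and Stmn2 lie high in nearly all neurons and reach into some cells with other labels. Tbr1 splits the neurons into cells with and without reads and reaches 10 CPM in 0 reference cells.

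Most cortical excitatory identity factors were higher in the neurons. Of 16 listed genes 14 were measured, 12 of them were higher than in glia and vessel cells (background 11.6%), none was lower, and the median log2 ratio was 3.65. Of these, 9 were higher than in each of the 6 types (background 3.52%). Bcl11a, a zinc finger factor of postmitotic projection neurons, ran from 0 through 374 to 2587 CPM and had a read in 51 of 52 neurons and 3 of 41 microglia. It summed to 526 against 5.76 CPM (log2 ratio 6.28). Myt1l, a repressor of non-neuronal genes, ran from 0 through 543 to 3516 CPM, was read in 51 of 52 neurons and no microglia, and summed to 761 against 11.8 CPM (log2 ratio 5.90). Both were therefore near-universal in the neurons, unlike Tbr1. Zbtb18, a repressor needed for cortical migration, was read in all 52 neurons at 361 against 32.9 CPM (log2 ratio 3.42). Bhlhe22, which guides area identity, was read in 29 neurons at 55.6 against 0.125 CPM (5.65). The nuclear factor I genes divided. Nfix (861 against 73.2 CPM, log2 ratio 3.54) and Nfib (4026 against 890.4 CPM, 2.18) were higher in neurons, whereas Nfia, which also drives astrocyte formation, stood at 885 against 1182 CPM (-0.42). Tcf4, an E protein that pairs with NeuroD factors, was abundant in every arm and stayed just under the rule at 3579 against 956 CPM (log2 ratio 1.90). Mef2c was called at a log2 ratio of 2.11 but fell to 1.99 without neuron 41, and microglia also carried it, with a read in 40 of 41.

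Per length of the gene's exons, Neurod6 stood at 429 CPM per kilobase against 38.4 for Neurod1 and 18.7 for Neurod2, so Neurod6 made up most of the NeuroD transcript. Of the vesicular glutamate transporters, which load synaptic vesicles, Slc17a6 and hardly Slc17a7 was read. Slc17a6 was read in 19 of 52 neurons and 2 of 41 microglia, with a highest value of 6930.4 CPM and a summed level of 138 against 2.62 CPM (log2 ratio 5.27, with 32.6% of its reads in 1 neuron). Slc17a7, the main transporter of mature cortex, had reads in 1 of 52 neurons and a summed level of 0.0234 CPM. Emx1, a marker of cortical progenitors and their progeny, was read in 2 of 52 neurons, and 97.2% of its few reads came from 1 cell.

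Promoters of 4 identity factors are shown because NeuroD and neurogenin proteins bind the E-box CAGATG, which reads CATCTG on the opposite strand, and these factors were among the genes that marked the neurons. Each line gives the 250 bases upstream of the most upstream RefSeq start, 5′ to 3′ on the gene's strand, from the RefSeq annotation of GRCm38.p6, with any match to these letters in capitals.
Neurod2: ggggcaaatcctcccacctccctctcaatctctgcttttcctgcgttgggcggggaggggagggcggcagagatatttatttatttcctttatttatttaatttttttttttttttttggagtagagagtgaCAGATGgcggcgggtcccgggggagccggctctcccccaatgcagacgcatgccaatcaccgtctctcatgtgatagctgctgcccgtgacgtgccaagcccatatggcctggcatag
Zbtb18: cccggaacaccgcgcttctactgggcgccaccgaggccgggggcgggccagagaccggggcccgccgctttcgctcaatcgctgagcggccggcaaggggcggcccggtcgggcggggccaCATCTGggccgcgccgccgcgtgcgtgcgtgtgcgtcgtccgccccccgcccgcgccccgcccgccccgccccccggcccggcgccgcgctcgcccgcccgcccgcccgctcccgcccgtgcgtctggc
Myt1l: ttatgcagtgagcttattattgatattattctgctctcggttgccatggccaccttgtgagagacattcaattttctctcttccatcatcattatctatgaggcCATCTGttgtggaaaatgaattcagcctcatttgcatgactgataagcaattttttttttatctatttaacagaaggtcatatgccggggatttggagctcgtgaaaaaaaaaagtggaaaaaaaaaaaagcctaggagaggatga
Neurod6: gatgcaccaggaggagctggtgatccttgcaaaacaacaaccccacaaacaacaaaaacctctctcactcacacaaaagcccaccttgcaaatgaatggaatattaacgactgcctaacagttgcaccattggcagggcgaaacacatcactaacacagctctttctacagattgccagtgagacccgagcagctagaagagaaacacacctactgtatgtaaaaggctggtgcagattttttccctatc
The windows lie at chr11:98329646-98329895 (minus strand), chr1:177442101-177442350 (plus), chr12:29528134-29528383 (plus) and chr6:55681264-55681513 (minus). The match ended 113 bases before the start in Neurod2, 124 bases before it in Zbtb18 and 141 bases before it in Myt1l, and these letters were not in the Neurod6 window. Nfia also held it. Over the listed identity factors with a window, 4 of 12 (33.3%) held the motif, against 3929 of 27025 gene promoters (14.5%), 792 of 8392 promoters of measured genes (9.44%) and 37 of 280 promoters of genes higher than in each reference type (13.2%). None of 8 upper layer promoters and none of 8 deep layer promoters held it. A match describes letters in a window and not a bound site, and the identity factors with a match included Nfia, which was not higher in neurons.

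Cux1, Cux2, Pou3f2, Pou3f3 and Lhx2 of the upper layer list and Foxp1 of the deep layer list were among the layer genes read in more than 50% of the thinned neurons. Of 10 listed upper layer genes 9 were measured and 6 were higher in neurons (background 11.6%, median log2 ratio 2.48). Of 12 listed deep layer genes 9 were measured and 4 were higher (background 11.6%, median 1.63, or 1.05 without neuron 3). None of either list was lower. Bcl11b, a zinc finger factor of subcerebral projection neurons (chr12:107910403-108003602, minus strand), ran from 0 through 1.38 to 2563 CPM and was read in 26 of 52 neurons and no microglia. Its summed level was 118 against 0.427 CPM (log2 ratio 6.38). Only 1 reference cell, a precursor cell, reached 10 CPM, so Bcl11b was almost confined to neurons in these cells. Pou3f2, a POU factor of upper layer neurons, was read in 44 of 52 neurons at 781 against 139.6 CPM (log2 ratio 2.48), Pou3f3 in 44 at 81 against 10.7 CPM (2.81) and the netrin receptor gene Unc5d in 24 at 189.8 against 11.5 CPM (3.93). Cux2 was read in 49 of 52 neurons at 214 against 50 CPM, with a log2 ratio of 2.07 that dropped to 1.96 without neuron 5, and Rorb, the layer 4 factor, stood at 113 against 201 CPM and was read in 13 neurons. Other layer 5 and 6 genes were scarce. Fezf2 was read in 4 of 52 neurons, Foxp2 in 3, Tle4 in 8 and Crym in 6, while Lmo3 was read in 14 and was higher in neurons at 178 against 9.92 CPM (log2 ratio 4.04). Per length, Cux2 stood at 23.6 CPM per kilobase, Tbr1 at 22.4 and Bcl11b at 14.6.

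Factors of different layers were read together in many of these neurons. Cux2 and Bcl11b were both read in 24 of 52 neurons (46.2%, Clopper-Pearson 95% interval 32.2 to 60.5), Cux2 alone in 25, Bcl11b alone in 2 and neither in 1. With the stricter requirement of 10 CPM of each in the cell, 16 of 65 neurons (24.6%) had both. Bcl11b and Tbr1, which mark subcerebral and layer 6 neurons, were both read in 11 of 52 neurons (21.2%, 11.1 to 34.7), Bcl11b alone in 15, Tbr1 alone in 12 and neither in 14. At 10 CPM of each, 7 of 65 neurons (10.8%) had both. Reads of Bcl11b thus nearly always came with reads of Cux2, which 49 of the 52 neurons had. Doublets were not filtered, and their part in cells with reads of several layer factors was not tested.

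**Figure D2:**
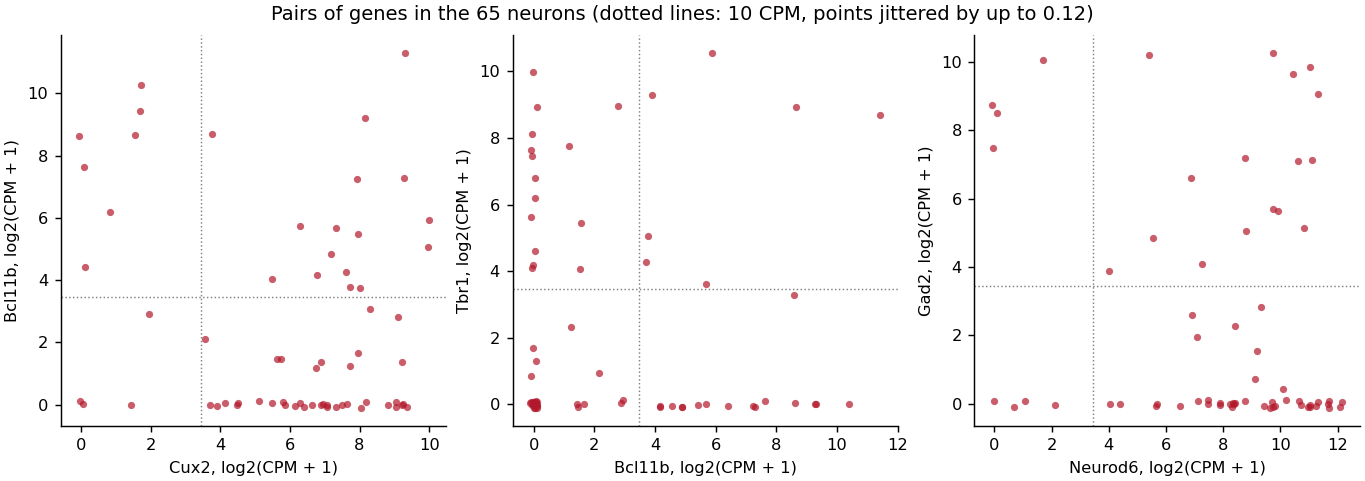
Pairs of factors in the 65 neurons, each axis log2(CPM + 1) of 1 gene and each point 1 cell, with dotted lines at 10 CPM and points at 0 spread by a small jitter. At 10 CPM or more of both genes, 16 neurons hold Cux2 and Bcl11b, 7 hold Bcl11b and Tbr1, and 16 hold Neurod6 and Gad2.

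Genes of other early cortical neuron types were largely unread. Of the subplate genes, Nr4a2 was read in 14 of 52 neurons at 41.5 against 66 CPM (log2 ratio -0.66), Cplx3, Nxph4 and Trh had no reads in any neuron, and Lpar1, an early subplate gene that oligodendrocytes also express, was lower at 1.74 against 1600.3 CPM. Of the Cajal-Retzius genes, Lhx1, Lhx5 and Trp73 had no reads in any neuron and Reln, the secreted guide of migrating neurons, was read in 9 of 52 at 12.4 CPM. A count of 0 of 52 thinned neurons allows up to 5.77% of cells with a read at this depth, and sets no limit on cells that express the gene.

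Gad1, Gad2 and Dlx1 were each read in a minority of the neurons, and most neurons with reads of Gad2 also had reads of Neurod6, as did most neurons overall. Of 16 listed interneuron genes 11 were measured and 8 were higher than in glia and vessel cells (background 11.6%). None was lower, and the median log2 ratio was 2.35. Gad2, an enzyme of GABA synthesis, was read in 19 of 52 neurons and 2 of 41 microglia, with a median of 0 and a highest value of 1258 CPM and a summed level of 134 against 6.04 CPM (log2 ratio 4.27). The homeobox gene Dlx1 was read in 18 of 52 neurons and no microglia (70.5 against 0.656 CPM, log2 ratio 5.43), and Gad1 in 12 (63.4 against 11.7 CPM, 2.35, or 1.90 without neuron 41). Slc32a1, the vesicular GABA transporter, was read in 2. Lhx6 was read in 7 of 52 neurons and 70.8% of its reads came from neuron 8. Gad2 and Neurod6 were both read in 16 of 52 neurons (30.8%, 18.7 to 45.1) and Gad2 without Neurod6 in 3. Of the 26 neurons with 3 or more listed interneuron genes at 10 CPM, 21 had 10 CPM of Neurod6, 14 of Neurod2, 7 of Tbr1 and 6 of Slc17a6. Over all 65 neurons these counts were 57, 37, 22 and 16. Of the 10 neurons with 3 or more of the Gad, Dlx, Lhx6 and Slc32a1 genes, 7 had 10 CPM of Neurod6, 4 of Neurod2, 3 of Tbr1 and 2 of Slc17a6. Without those 26 neurons, the log2 ratio of Gad1 was -3.17 and that of Gad2 was -0.20, as follows from leaving out the cells chosen by these genes. Whether cells with both programmes were captured as doublets was not tested.

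Vim and Hes1 were among the lower progenitor genes, and 1 cell stood out by its cell cycle genes. Over all measured genes 11.6% were higher and 22.5% lower, and with 9 and 14 measured genes the counts of these lists are not set apart from those shares. Of 12 listed radial glia and intermediate progenitor genes 9 were measured, 1 was higher (Eomes, 18.3 against 1.74 CPM, read in 5 of 52 neurons) and 3 were lower, with a median log2 ratio of -1.24. The lower genes were Vim (16 against 269 CPM), Hes1 (0.714 against 12 CPM) and Fabp7 (132 against 540.2 CPM), and the last had a log2 ratio of -2.02, so near 4-fold that leaving out any 1 of 30 neurons ended the call (-1.98 without neuron 63, but -2.67 without neuron 70). Of 16 listed cell cycle genes 14 were measured, none was higher and 3 were lower, with a median log2 ratio of -0.45. Without neuron 55 that median was -2.07. Neuron 55 had 14 of the 16 cell cycle genes at 10 CPM or more, where the next neuron had 6. Its Top2a, the mitotic topoisomerase, stood at 5408 CPM against 9.57 CPM over the other neurons, and its Cdk1 and Aurkb, kinases of mitosis, at 1071 and 1138 CPM where the other neurons had no reads of either. It carried Stmn2 at 467 CPM and Neurod6 at 233 CPM but the lowest Dcx of all neurons, 32.4 CPM, with Slc1a3, a glutamate transporter of radial glia and astrocytes, at 2034 CPM and Pax6, a radial glia factor, at 468 CPM. The cell thus joined neuronal, progenitor and mitotic transcripts, and a doublet was not tested.

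Genes of the cytoskeleton of growing and migrating neurons were mostly higher in the neurons. Of 25 listed cytoskeleton and growth cone genes 24 were found and measured, and 19 were higher than in glia and vessel cells (background 11.6%). None was lower, and the median log2 ratio was 3.41. Of the measured genes 7 were higher than in each of the 6 types (background 3.52%). Tuba1a, the alpha-tubulin of postmitotic neurons, took the most reads of the genes ranked, with a lowest value of 2675, a median of 17937 and a highest value of 34099 CPM. Its summed level was 19132 against 1620.3 CPM (log2 ratio 3.56), and newly formed oligodendrocytes reached 10452 CPM, so it was not particular to neurons. Map1b, a microtubule-associated protein of growing axons, stood at 72.4, 8575 and 21158 CPM and a sum of 8768 against 734 CPM (3.58), with newly formed oligodendrocytes at 7435 CPM. The collapsin response mediators, which relay semaphorin signals to microtubules, split by member. Crmp1 (866 against 19.7 CPM, log2 ratio 5.39), Dpysl5 (452 against 9.46, 5.44) and Dpysl3 (2013 against 122, 4.03) were higher in neurons, while Dpysl2 was abundant in both arms at 15771 and 13984 CPM (0.17). The neurofilament gene Ina, which precedes the other neurofilaments, was read in 38 of 52 neurons at 315 against 5.57 CPM (5.59), whereas Nefm was read in 19 and Nefl in 7. Gap43, a growth cone protein, was read in 45 of 52 neurons and summed to 239.7 against 23.3 CPM (3.31).

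Within the stathmin family, levels per length were unequal. Stmn1 stood at 2358 CPM per kilobase, Stmn2 at 596, Stmn3 at 273 and Stmn4 at 8.01, and Stmn1 made up 72.9% of the 4. The order by difference from glia was another one, with a log2 ratio of 7.35 for Stmn2, 3.74 for Stmn3, 3.11 for Stmn1 and -0.24 for Stmn4. Stmn2, a marker supplied with the cell type, thus had the largest ratio, which is a description only. Stmn1 was the most abundant.

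Microtubule motors showed the same division between general and neuronal members. Of 13 listed motor genes, all measured, 6 were higher (background 11.6%) and none lower (median log2 ratio 1.82). Among the kinesin-1 heavy chains, which carry axonal cargo, the neuronal Kif5c ran from 0 through 66.8 to 3185 CPM and summed to 289.7 against 2.24 CPM (log2 ratio 6.49), and Kif5a to 320.4 against 21.1 CPM (3.86). The ubiquitous Kif5b stood at 329 against 260.1 CPM (0.34). Per length the 3 chains were close, at 54.6 CPM per kilobase for Kif5b, 45.8 for Kif5a and 42.3 for Kif5c. Dync1i1, the neuronal dynein intermediate chain, was read in 14 of 52 neurons at 59.8 against 1.74 CPM (4.47). Of 17 listed migration and lissencephaly genes 16 were measured, 6 were higher (background 11.6%) and 1 was lower (background 22.5%, median 1.26). Beyond the tubulins and Dcx, the higher members included Dab1, the intracellular adaptor of reelin signalling (537 against 74 CPM, log2 ratio 2.84), and Cdk5r1, the p35 activator of the kinase Cdk5 (245 against 11, 4.36). The reelin receptor genes Lrp8 (448 against 152 CPM) and Vldlr (55.4 against 91.9 CPM) did not reach the rule. Nde1, a dynein regulator of dividing progenitors, was lower at 2.13 against 156 CPM, while its postmitotic relative Ndel1 stood at 51.3 against 148 CPM.

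**Figure D3:**
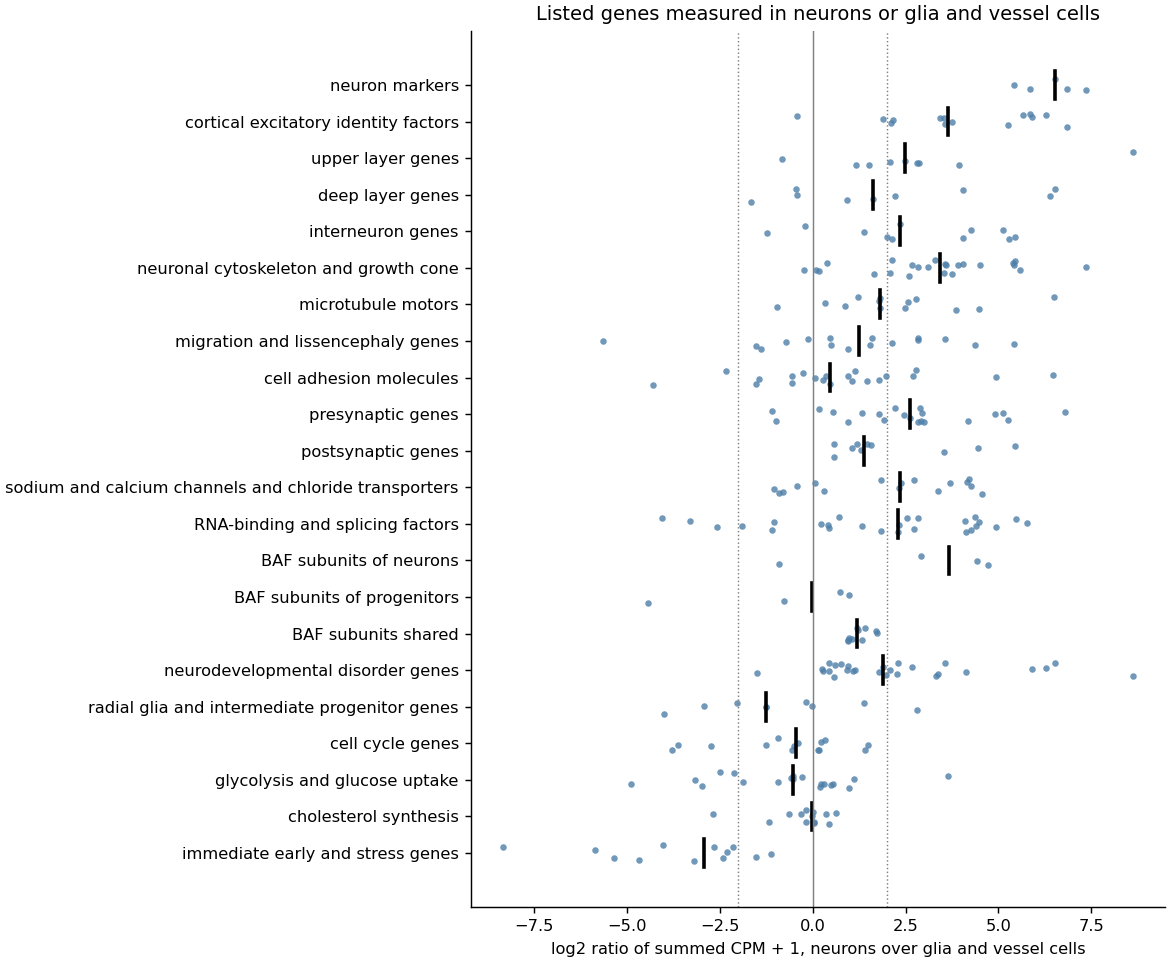
Log2 ratio of cortical neurons over glia and vessel cells on the horizontal axis for each measured gene of the lists on the vertical axis, with 1 point per gene, a black bar at the list median and dotted lines at 4-fold. Identity factors (median 3.65) and cytoskeletal genes (median 3.41) lie to the right, and immediate early and stress genes (median -2.92) to the left.

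Presynaptic and postsynaptic genes were higher in the neurons or within 4-fold, against a background of 11.6% higher. Of 22 listed presynaptic genes 21 were measured, 13 were higher and none lower (median log2 ratio 2.62), and of 15 listed postsynaptic genes 10 were measured, 3 were higher and none lower (median 1.38). Syt4, a synaptotagmin of growing neurites, ran from 0 through 732 to 9671 CPM and was read in 49 of 52 neurons and no microglia. It summed to 944 against 7.55 CPM (log2 ratio 6.79). Snap25, a membrane fusion protein of the nerve terminal, was read in 43 of 52 neurons at 456 against 24.4 CPM (4.17), and Syt1, the calcium sensor of fast release, in 33 at 173 against 4.76 CPM (4.92). Snap25 was shared with oligodendrocyte precursor cells, which held 277 CPM, with 10 of 16 cells at 10 CPM. Synapsin and synaptophysin, usual markers of mature terminals, were sparse. Syn1 and Syp were each read in 12 of 52 neurons, and the call of each rested on 1 cell, since the log2 ratio of Syn1 went from 2.94 to 1.98 without neuron 37 and that of Syp from 2.21 to 1.6 without neuron 25. Among postsynaptic genes the higher ones were Camk2b (155 against 2.57 CPM, log2 ratio 5.45), Dlg2 (115 against 4.36, 4.44) and Dlg3 (35.6 against 2.18, 3.52, or 2.61 without neuron 47), the last 2 being scaffold proteins of the postsynaptic density. Camk2a, the subunit of mature excitatory synapses, was read in 2 of 52 neurons, and per length stood at 0.215 CPM per kilobase against 35 for Camk2b. Arc, an activity-regulated gene of dendrites, had no reads in any neuron.

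Among sodium channels Scn3a led, and among chloride transporters Slc12a2. Of 18 listed genes 16 were measured, 9 were higher (background 11.6%) and none lower (median log2 ratio 2.35). Among the higher ones, Cacna1e went from a log2 ratio of 2.33 to 1.18 without neuron 47. Cacna1h went from 2.37 to 1.81 without neuron 63. Scn3a, a sodium channel prominent before birth, ran from 0 through 159.9 to 2638 CPM and summed to 462 against 23.2 CPM (4.26). It was read in 44 of 52 neurons, against 21 for Scn2a, 22 for Scn8a and 15 for Scn1a. Per length Scn3a stood at 47.6 CPM per kilobase, Scn2a at 16.6, Scn1a at 10.1 and Scn8a at 5.48, so Scn3a made up most of the sodium channel transcript of these 4 genes. The chloride importer Slc12a2, which keeps GABA depolarising in young neurons, was read in 16 of 52 neurons at 15.1 CPM per kilobase, and the exporter Slc12a5 in 6 at 2.38. In summed level Slc12a2 was not called (98.6 against 185 CPM), and Slc12a5 was higher than in glia (14.8 against 0.219 CPM, log2 ratio 3.7), with 66.6% of its reads in 1 neuron and a ratio of 2.32 without it. Cacna1b, the N-type calcium channel of nerve terminals, was read in 23 of 52 neurons at 123 against 4.25 CPM (4.56).

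Many RNA-binding proteins of neurons were higher than in glia and vessel cells. Of 27 listed RNA-binding and splicing factors 26 were measured, 14 were higher (background 11.6%) and 3 lower (background 22.5%, median log2 ratio 2.30). Of the measured genes 9 were higher than in each of the 6 types (background 3.52%). Rbfox1 (187 against 5.14 CPM, log2 ratio 4.93), Rbfox2 (478 against 20.5, 4.48), Elavl2 (251 against 13.6, 4.11) and Nova2 (104 against 5.06, 4.11) are regulators of neuronal splicing or transcript stability. Celf5 was nearly confined to neurons, with a read in 35 of 52 neurons and in 1 of 186 reference cells. Srrm4, the activator of neuronal microexons, was read in 41 of 52 neurons and no microglia at 128 against 5.24 CPM (4.37). The lower genes were Qk, a splicing regulator of glia (269 against 4428 CPM, log2 ratio -4.04), Mbnl2 (17 against 175, -3.29) and Nova1 (6.57 against 44, -2.57, or -3.72 without neuron 56). Nova1 and Nova2 therefore lay on opposite sides of the rule. Elavl3 was read in 51 of 52 neurons and had the largest level of its family per length (86.4 CPM per kilobase, against 52.8 for Elavl2, 32.4 for Elavl4 and 21.7 for Elavl1), but myelinating oligodendrocytes held 1498 CPM and its log2 ratio was 0.71.

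Ptbp2, the polypyrimidine tract binding protein that replaces Ptbp1 as neurons form, ran from 0 through 365 to 5805 CPM, was read in all 52 thinned neurons and in 15 of 41 microglia, and summed to 621 against 85.9 CPM (log2 ratio 2.84). Oligodendrocyte precursor cells held 296 CPM of Ptbp2, with 11 of 16 cells at 10 CPM. Ptbp1 was read in 17 of 52 neurons and 20 of 41 microglia at 53.1 against 111 CPM (-1.05). At 10 CPM, 11 of the 13 neurons with Ptbp1 also had Ptbp2, which 60 of the 65 neurons had. Per length Ptbp2 stood at 126 against 15.4 CPM per kilobase. The BAF chromatin remodeller exchanges several subunits when progenitors leave the cell cycle. Of its 4 listed neuronal subunits 3 were higher (background 11.6%, median log2 ratio 3.67). These were Ss18l1 (201 against 6.70 CPM, 4.72, read in 36 of 52 neurons), Actl6b (22.2 against 0.0937, 4.41, in 17) and Dpf1 (60.3 against 7.09, 2.92, in 33), and Dpf3 stood at 7.54 against 14.9 CPM. Of the 4 progenitor subunits, Ss18 was lower (11.3 against 263 CPM, log2 ratio -4.43, or -5.10 without neuron 70, read in 5 of 52 neurons), but Actl6a (78 against 39.3 CPM), Phf10 and Dpf2 were within 4-fold, and the median was -0.02, or -0.42 without neuron 18. The Ss18 pair therefore lay on opposite sides of the rule and the Actl6 pair did not. Per length, Ss18l1 stood at 46.4 and Ss18 at 2.49 CPM per kilobase, and Actl6b at 14 and Actl6a at 38.8. Actl6a and Actl6b were each read in 17 of 52 neurons and both in 5. None of 10 measured shared subunits was called (median log2 ratio 1.20). Of 7 listed genes of the REST repressor complex 6 were measured and none was called, with a median of -0.55 (-0.93 without neuron 18), and Rest itself was read in 6 of 52 neurons.

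**Figure D4:**
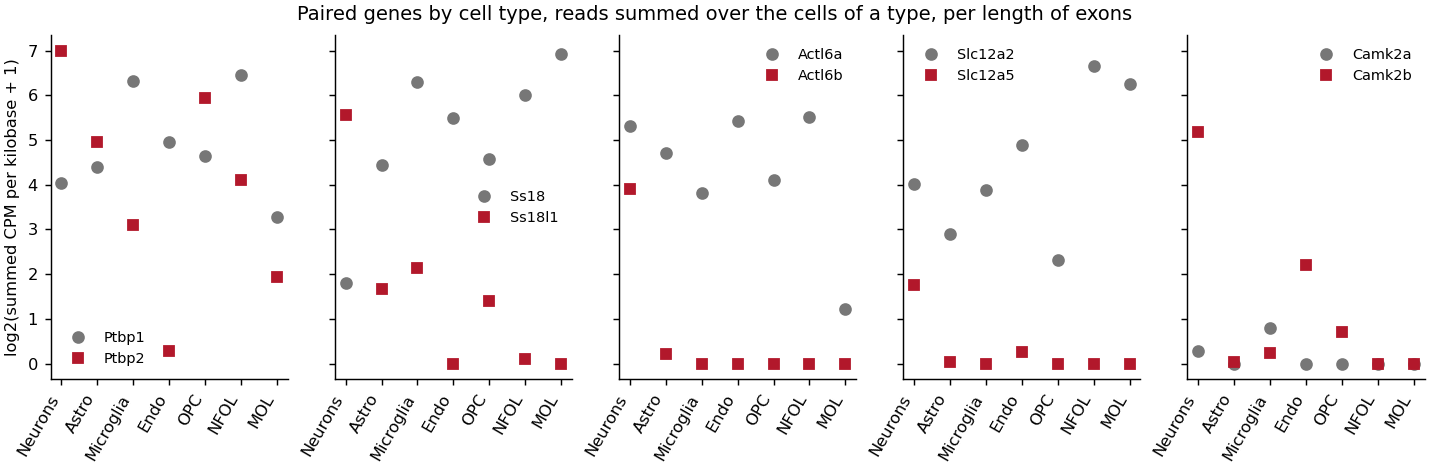
Summed level by cell type for 5 pairs of related genes, as log2(summed CPM per kilobase of exons + 1) on the vertical axis, with 1 point per cell type and gene. In cortical neurons Ptbp2, Ss18l1 and Camk2b lie above their partners Ptbp1, Ss18 and Camk2a, while Slc12a2 lies above Slc12a5 and Actl6a above Actl6b.

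Most adhesion molecule genes were within 4-fold of glia and vessel cells. Of 21 listed genes, all measured, 4 were higher (background 11.6%) and 2 lower (background 22.5%, median log2 ratio 0.47). The higher ones were L1cam, an adhesion protein of axon bundles (149 against 0.697 CPM, log2 ratio 6.47, read in 38 of 52 neurons and no microglia), the cadherin Cdh8 (80.5 against 1.68, 4.93), the L1cam relative Chl1 (770.3 against 112, 2.77) and the axonal contactin Cntn2 (454 against 68.7, 2.71). The lower ones were Cntn1 (26.6 against 539.9 CPM, -4.29), for which precursor cells reached 4494 CPM, and Lsamp (33.7 against 175, -2.34). The contactins thus differed in direction, Cntn2 being higher and Cntn1 lower. Of 6 listed neurotrophin genes 3 were measured. Ntf3 was the 1 called, at a log2 ratio of 2.33 that became -1.02 without neuron 53, which held 95.3% of its reads, and the list's median of 1.22 became -0.76. The receptor genes Ntrk2 (read in 33 of 52 neurons) and Ntrk3 (in 21) were within 4-fold of glia, Bdnf was read in 2 and Ngfr had no reads.

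Genes linked to autism and intellectual disability included many of the factors above. Of 30 listed genes 27 were measured, and 12 were higher than in glia and vessel cells (background 11.6%) and none lower (median log2 ratio 1.90). Of the measured genes 6 were higher than in each of the 6 types (background 3.52%). The list shares Tbr1, Myt1l, Bcl11a, Tcf4, Foxp1, Scn2a, Shank3 and Arid1b, among others, with lists above, so its count is not separate from theirs. Grin2b, a glutamate receptor subunit of young synapses, was read in 49 of 52 neurons at 295 against 16.1 CPM (4.12), and Auts2, a regulator of transcription and neurite growth, summed to 640.4 against 62.7 CPM (3.33). Among the called genes, Dscam, Med13l and Tcf20 fell under 4-fold without 1 neuron each.

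Most stress genes were lower in the neurons than in pooled glia and vessel cells, while the count of lower glycolysis genes was near the background. Of 19 glycolysis genes, all measured, 1 was higher (background 11.6%) and 5 were lower (background 22.5%, median log2 ratio -0.54). The higher one was Slc2a3, the neuronal glucose transporter (21.2 against 0.777 CPM, log2 ratio 3.65, read in 7 of 52 neurons), and Aldoc, an astrocyte enzyme (75.5 against 2257, -4.88), Aldoa (114 against 647, -2.49), Hk2, Pfkl and Slc2a1 were lower. Of 13 measured cholesterol synthesis genes 1, Mvk, was lower (median -0.03). Of 14 listed immediate early and stress genes 12 were measured, none was higher and 10 were lower (background 22.5%), with a median log2 ratio of -2.92. Atf3, a stress-induced factor, stood at 1.31 against 739.7 CPM (-8.32), Junb at 0.0819 against 61.2 (-5.84) and Btg2 at 164 against 2656 (-4.01), and Hspa1a and Hspa1b had no reads in neurons. Fos, an immediate early gene of activity and of tissue handling, remained abundant at 957 against 2756 CPM. The reference level was uneven across types. Atf3 stood at 2814.5 CPM in microglia and 1255 CPM in endothelial cells, against 33.3 CPM in astrocytes. Newly formed oligodendrocytes lay below the neurons, with Fos at 3.84 CPM, Btg2 at 0.284 CPM and Egr1 at 1.28 against 480 CPM. In precursor cells Fos stood at 801 CPM. Against E18.5 astrocytes 6 of 10 measured genes of this list were lower (background 19.5%) and 1 was higher (background 23.3%), with a median of -2.20. The part of tissue handling in these levels was not tested.

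Most markers of the other classes were lower in the neurons (background 22.5%), and 1 cell had a high sum of astrocyte markers. All 12 astrocyte markers (median log2 ratio -5.21), all 12 microglia markers (-8.93), all 12 endothelial markers (-6.45), all 6 measured precursor markers (-5.61) and all 12 myelinating oligodendrocyte markers (-7.58) were lower. As a share of the median marker sum of the class itself, no neuron exceeded 0.353% for microglia, 2.63% for endothelial cells, 4.70% for precursor cells or 1.6% for myelinating oligodendrocytes. Of the 5 newly formed oligodendrocyte markers 4 were lower (median -5.82), and the neurons reached up to 3215 CPM of their sum, in neuron 28, or 17.9% of the class median. Those 3215 CPM were all reads of Fyn, a kinase gene that stood at 292 CPM in neurons against 253 CPM in glia and vessel cells (0.20). In neuron 70 astrocyte markers summed to 15844 CPM, 39.9% of the astrocyte median, where the next neuron had 4576 CPM. It carried Fabp7 at 7245 CPM, Slc1a3 at 6775 CPM, Dcx at 579 CPM and Stmn2 at 340.4 CPM. It had 6494 detected genes from 578712 reads. Such a count was not particular to it, since neurons 66 and 62 had 6649 and 5986 genes from 725733 and 521706 reads. Leaving neuron 70 out lowers the neurons' summed astrocyte markers from 481 to 376 CPM.

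The E18.5 astrocytes give a reference of the same age. Of 9712 measured genes 2259 (23.3%) were higher in neurons and 1889 (19.5%) lower, with a median log2 ratio of 0.15. The neurons are the same in both comparisons and the 19 astrocytes are part of the larger reference, so neither is independent of the other. All 5 neuron markers were higher, as were 10 of 14 measured identity factors (median 3.62) and 15 of 24 cytoskeletal genes (3.05). Of 27 measured disorder genes 18 were higher and none lower (2.32), while 12 of 21 presynaptic genes (2.97) and 6 of 10 postsynaptic genes (2.98) were higher. Bcl11a was higher here too (526 against 3.44 CPM, log2 ratio 6.89). Zbtb18 (361 against 101 CPM, 1.82), Neurod1 (1.37), Nfib (0.81) and Nfia (-1.17) were not called against E18.5 astrocytes. Add2, Gdap1, Prkar1b and Serpini1 had no reads in any of the 19 astrocytes and were at least 1194-, 2605-, 3106- and 2798-fold higher in neurons, against a floor of 3 reads over the arm. These bounds cover counting error only, and the log2 ratio of Serpini1 went from 8.14 to 7.41 without neuron 41, which held 41.2% of its reads. They are a membrane skeleton protein, a mitochondrial protein, a regulatory subunit of protein kinase A and a neuronal serpin, in that order.

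At the other end, Ptgds, the prostaglandin D synthase, stood at 8.24 against 5919 CPM (log2 ratio -9.32, or -12.08 without neuron 43, which held 95.6% of its neuron reads), and Sall1, a zinc finger factor, at 0.269 against 329 (-8.02). Of 9 measured radial glia and progenitor genes 4 were lower (background 19.5%) and 1 was higher (background 23.3%). The lower ones included Fabp7 (132 against 2341 CPM, -4.13, or -4.79 without neuron 70) and Vim (16 against 778 CPM, -5.51, or -6.22 without neuron 60). Of 14 measured cell cycle genes 4 were higher and 3 lower, counts that are not set apart from those shares. Their median and higher calls rested in part on neuron 55. Without it the median went from 0.06 to -0.97. The log2 ratio of Top2a then went from 2.58 to -0.45, of Cdk1 from 2.08 to -1.93 and of Mcm3 from 4.98 to 0.36. Migration genes stood at a median of 0.35, or 0.17 without neuron 23, and deep layer genes at 0.47, or 0.24 without neuron 9. The astrocyte arm was itself mixed, with 2 cells under 5% of the astrocyte marker median and 3 carrying another class's markers at 25% or more.

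The 5 E18.5 neurons titled mThal carried Dcx and Stmn2 but no reads of several genes read in the cortical neurons. Of 8706 measured genes 4006 (46%) were higher in cortical neurons and 1045 (12%) lower, with a median log2 ratio of 1.49, so most genes lay above 0 and a single high gene says little. In cells 3, 27, 43, 45 and 46, Dcx stood at 2603, 6354, 3054, 1342 and 1392 CPM and Stmn2 at 3100.4, 2608, 86.7, 1797 and 38.1 CPM, within the range of the cortical neurons. Pou3f3, Bhlhe22 and Dlx1 had no reads in any of the 5 cells, and in cortical neurons were at least 238-, 163- and 207-fold higher against the floor of 3 reads over the arm. All of these genes were also missing from some cortical neurons. Neurod6 stood at 79.3, 908, 294, 0 and 0 CPM in the same order of cells, so 3 of the 5 carried it. Of 24 measured cytoskeletal genes 1 was higher and 3 lower (median -0.01). With 5 cells, region and sampling of cells cannot be told apart.

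Across all genes, a naming rule ranked genes by the size of the difference from glia and vessel cells. By the naming rule, 861 genes qualified on the higher side and 78 on the lower side. Among the 10 highest, besides Stmn2, Neurod6, Syt4, Kif5c and L1cam described above, were Trim67, a ubiquitin ligase of neurons (476 against 0.833 CPM, log2 ratio 8.02), Serpini1, which encodes neuroserpin (281 against 0.121, 7.97), Golga7b (394 against 1.62, 7.24) and Add2, an adducin of the membrane skeleton (119.8 against 0.0902, 6.79). Serpini1 was carried unevenly, with 41.2% of its reads in neuron 41, a log2 ratio of 7.24 without that cell and reads in 27 of 52. The 10 lowest included Cnp of myelin, Gja1 and Clu of astrocytes, Ttyh2, Sdc4, Bhlhe41, Akap13, S1pr1 and Mt1. Sdc4, a syndecan, stood at 2.84 against 1053 CPM (-8.10, or -9.87 without neuron 42, which held 95.5% of its neuron reads) and the metallothionein gene Mt1 at 2.35 against 269 CPM (-6.33).

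Outside the ribosomal, predicted and numbered genes, which were not ranked, the 10 genes with the largest share held 9.17% of all neuron reads. Among them were Tuba1a, Dpysl2, Actb, Map1b, Enc1, Gnb1, Mn1, Eef1a1 and Tubb5. Enc1, which binds actin in growing neurons, ran from 1.25 through 6776 to 45264 CPM and summed to 8056 against 508 CPM (log2 ratio 3.98), and Mn1, a transcriptional regulator, ran from 0 through 4953 to 18459.8 CPM and summed to 6522 against 323 CPM (4.33). Both were therefore abundant and higher in neurons, while Actb (-0.47) and Gnb1 (0.69) were abundant without reaching the rule.

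Among the neurons themselves, most genes were read in some cells and not in others. Of 4046 genes at 50 CPM or more on average, 73 were read in all 52 thinned neurons, and the median gene was read in 50% of them. The median SD of log2(CPM + 1) over cells was 3.33. The steadiest genes were Actb, Gsk3b, Tubb5, Cbx3, Ptma, Dpysl2, Gnb1, Tuba1a, Tuba1c and Arglu1, among them 3 tubulin genes. Gsk3b, a kinase of Wnt signalling and neuronal polarity, ran from 755 through 2389.8 to 6315 CPM and had an SD of 0.65. At the other extreme Hsdl1 ran from 0 through 48.5 to 8842 CPM with an SD of 4.94, Ncs1, a neuronal calcium sensor, from 0 through 453 to 3285 CPM with an SD of 4.73, and Lzts1, which controls the delamination of new neurons, from 0 through 69.1 to 5774 CPM with an SD of 4.60. Pairs of neurons had a Pearson correlation of log2 CPM over genes of 0.257 to 0.617, with a median of 0.447. Genes are not independent replicates, and this is a measure of closeness only. The first principal component of the variable genes held 8.78% of the variance. It had a correlation of 0.889 with the number of genes detected per cell and of 0.19 with log2 reads. Its high end held Arf1, Pkm, Ncs1 and Tagln3, and its low end Serpini1, Vcan and Foxp1. The second held 3.15% and had a correlation of -0.51 with log2 reads, with Arpp21, Dab1, Tenm3 and Tenm4 at its high end and Zfhx4, Rnd2 and Sema3c, an axon guidance ligand, at its low end. Both components were correlated with depth or detection to some degree, and what lies behind this and what else they hold was not tested.

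**Figure D5:**
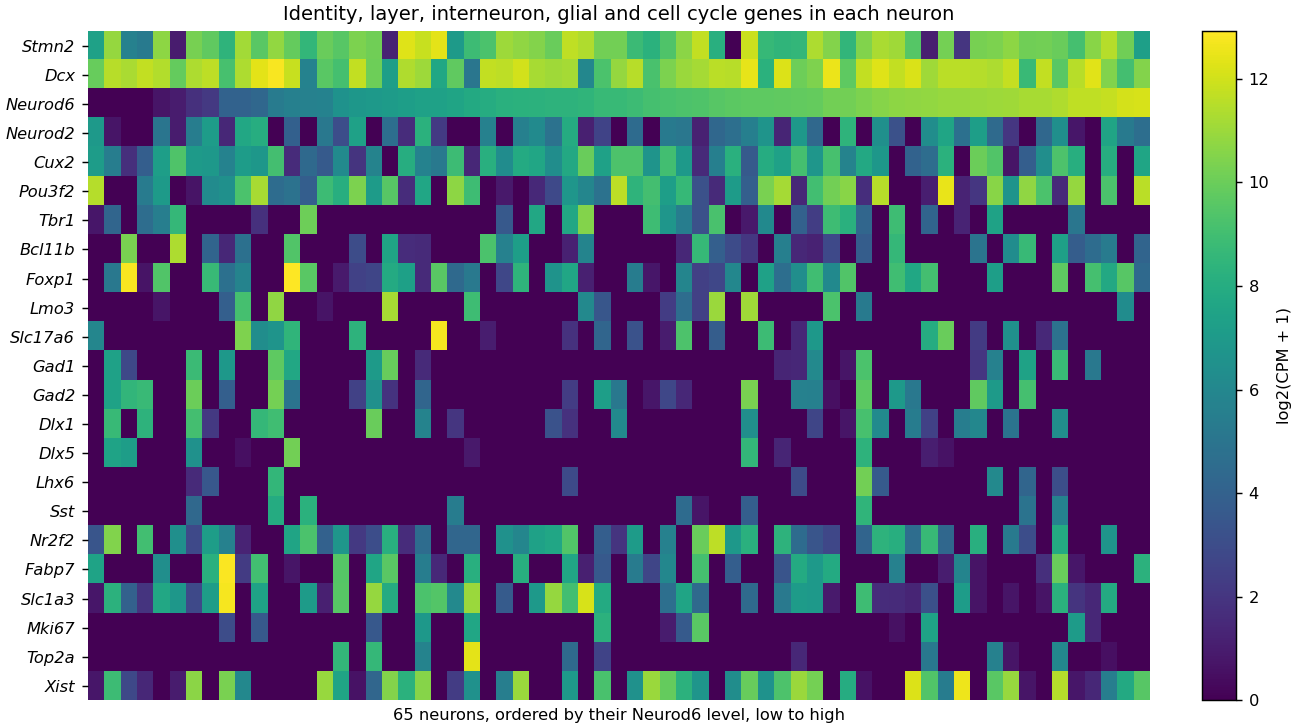
Level of 23 genes (rows) in each of the 65 neurons (columns, ordered by Neurod6), as log2(CPM + 1) by colour. Dcx is filled in all columns, whereas Tbr1, Bcl11b and Gad2 appear in scattered columns across the Neurod6 order.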

How the data were processed

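The authors deposited a table of raw read counts (333 single cells, 22074 genes), made with STAR and HTSeq 0.6.0 on mm10 per the submitters' processing notes. Strand settings and filters: not given in the sources used here. Libraries carry no molecular identifiers, so reads are not independent molecules and intervals cover counting error only. Cells were grouped by the title and cell type label, and every column matched 1 cell.

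With Python 3.11.15, numpy 2.4.6, pandas 2.3.3 and scipy 1.17.1, counts were summed over the cells of each arm and scaled to CPM. Log2 ratios had 1 CPM added. A gene was measured if 1 of the arms reached 10 CPM, and called from 4-fold. No test was run, since each arm is 1 sample. Detection shares were taken after thinning to 700000 reads, and 13 neurons below that depth were left out of them. A pair of adult microglia libraries with a Pearson correlation of 0.994 (next closest pair 0.638) were averaged as 1 cell. No doublet filter was used. Intervals are exact Poisson for levels (half-width at most 6.76% of the level at 10 CPM or more) and exact Clopper-Pearson for shares (95%, half-width at most 14.2 points). The floor behind "at least" is 3 reads over the reference arm, which held 29915165 reads for E18.5 astrocytes and 8806167 for mThal neurons. Over the neurons, 3 reads equal 0.0351 CPM. More than 50% of the reads came from 1 neuron in 1559 of 8083 genes (19.3%) at 10 CPM or more in neurons.

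Members and gene lists were chosen with earlier results of these data known. Listed genes could be named, and from all genes the 10 per direction with the largest log2 ratio at 50 CPM or more, with a read in at least 50% of cells and 30 points above the other arm, plus the 10 most and least variable genes (those read in 20 to 80% of neurons for the former), the 10 with most reads and the ends of principal components 1 and 2 of 500 variable genes. Ribosomal, predicted and numbered genes stayed out of rankings. Of 421 list symbols 417 were found, and Tubb3, Mvd, Msmo1 and Lhfpl3 were not analysed here. Exon lengths are from GENCODE M21 and promoters from RefSeq GRCm38.p6. Some genes that these rules name are not reported here. Alternatives were TMM and median-of-ratios scaling, pseudocounts of 0.1 and 5 CPM, a 50 CPM minimum or none, 2-fold calls, means over cells or over cell types, unmerged libraries, deep cells only, thinning to 400000 reads and leaving out mixed cells, interneuron-gene cells or each neuron. Leaving out the cycling neuron or astrocytes low in astrocyte markers was added after seeing the data. The steps were also run on simulated cells with known changes, both arms drawn from the neurons' own levels. Such a run checks the steps and not the calls, since it does not copy the reference cells.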

Additional observations from a re-analysis of the deposited data

Results flagged for a closer look

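Among the 5 E18.5 neurons titled mThal, cell 43 had 2197 detected genes, far below the other cells, which had 3200 to 3482. It also had the fewest reads, 703921. The 95% critical value behind this remark passes, by its definition, about 1 in 20 such groups by chance.

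Of the 4 unannotated cells in the E18.5 visual cortex set, 3 carried neuron markers above the highest microglia value of 737 CPM (sum of Stmn2, Dcx, Neurod6, Neurod2 and Tbr1), and entered no comparison. Unannotated cell 40 had a sum of 13118 CPM, above the highest labelled neuron (10268 CPM), with Stmn2 at 8744, Tbr1 at 1624 and Neurod6 at 1.51 CPM from 661288 reads and 1817 genes. Unannotated cell 59 had 2716 CPM, mostly Dcx (2459 CPM), and unannotated cell 15 had 1995 CPM, with Dcx at 1857 CPM and the radial glia and astrocyte gene Fabp7 at 1717 CPM. Labelled neurons had sums of 313 to 10268 CPM with a median of 4665. The fourth unannotated cell, cell 58, had 32.5 CPM.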

How the results depend on the processing

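No paired analysis was possible because each group is 1 sample and no label pairs cells or animals. A 50 CPM minimum changed the count of genes against glia and vessel cells to 695 higher and 1064 lower, against E18.5 astrocytes to 977 and 1152, and against mThal neurons to 1635 higher, and fewer genes are then measured. Calling from 2-fold gave 2825 higher against glia and vessel cells, 3422 higher and 2987 lower against E18.5 astrocytes, and 1810 lower against mThal neurons. Against mThal neurons, TMM and median-of-ratios scaling shifted all log2 ratios by -0.23 and -0.46, and the shift was at most -0.10 in the other comparisons. At 10 CPM in place of a read, 24.6% of neurons held both Cux2 and Bcl11b and 10.8% both Bcl11b and Tbr1. Leaving out each neuron in turn gave 1211 to 1233 higher and 2363 to 2424 lower genes against glia and vessel cells, 2238 to 2282 and 1886 to 1924 against E18.5 astrocytes, and 3980 to 4031 and 1036 to 1056 against mThal neurons. The log2 ratios of Gad1 and Gad2 turned to -3.17 and -0.20 without the neurons with 3 or more listed interneuron genes, by construction. Of 889 values of named genes under all alternatives, 506 stayed within the gene's counting interval, 381 left it in the same direction or without a call, and 2 turned. Of 50 called values among 58, which leave out many genes of the report, Cux2 (1.97 with TMM scaling), Slc12a5 (1.92 with a pseudocount of 5 CPM), Gad1 and Gad2 lost the call under some alternative. Genes outside that set, such as Mef2c, Syn1, Syp, Ntf3, Dscam, Med13l and Tcf20, lost theirs without 1 neuron.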
